A study of Mus musculus with 8 samples.

Results

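The genes described here are Hap1, Htt, which encodes huntingtin, and 8 genes for proteins that bind them or carry them along microtubules. They are Ahi1, Hip1, Hip1r, Kif5a, Kif5b, Kif5c, Dctn1 and Klc1, so that 10 of the 55416 genes in the count table are covered. The group was selected on measured values, since Hap1 was known to differ between the genotypes in these same libraries, and the other 9 genes were added by name as its partners. For this reason the levels of the 10 genes and their differences between genotypes are given as a description, and no p-value is printed for them. All 10 genes had counts in every library and all 10 entered the adjusted test.

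Polyadenylated RNA was sequenced from the cerebral cortex of 4 mice heterozygous for the L192P substitution in Ago2 (labelled AGO2_L192P/+, here L192P) and of 4 wild-type mice (WT). The study's methods name the mouse allele p.L193P, while its labels and results use L192P. Argonaute 2, the product of Ago2, carries a miRNA to matching sites in mRNAs and lowers their output. The knock-in was made by CRISPR/Cas9 in embryos of C57BL/6JUke mice, and the repair template also carried a silent change that protects the edited allele from being cut again. The L192P animals therefore keep 1 wild-type allele, and the substitution is in the germ line and not limited to 1 cell type. By the study's account, heterozygous L192P pups were fewer among live births than the Mendelian share. The labels used here give no age, sex or litter, and p-values measure only the spread between these libraries.

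Hap1, the huntingtin-associated protein 1, is a neuronal adaptor that binds huntingtin, the protein whose expanded polyglutamine tract causes Huntington disease. It links vesicles to kinesin-1, the motor that moves cargo toward the ends of axons, and through dynactin to dynein, the motor that moves cargo back to the cell body. Hap1 protein is known to be abundant in the hypothalamus and the amygdala. It also forms a complex with Ahi1, the product of a gene mutated in Joubert syndrome, a malformation of the hindbrain.

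Hap1 and Ahi1 were the 2 of the 10 genes with higher levels in L192P in the adjusted test, so the sequences around their starts are shown first. The windows run from 250 bases before to 50 bases after the start of the canonical transcript in GENCODE M39, on GRCm39, written 5′ to 3′ on the strand of the gene. Capitals mark matches, on either strand, to 3 motifs. The letters of a TATA box, an element that lies before the start, were searched as TATAAA. The GC box was searched as GGGCGG, whose reverse complement appears in capitals in the Ahi1 window too. The core of the cAMP response element was searched as TGACG, and both windows hold it in reverse complement. The Hap1 window lies at chr11:100246929-100247228 on the minus strand and the Ahi1 window at chr10:20828143-20828442 on the plus strand.
Hap1: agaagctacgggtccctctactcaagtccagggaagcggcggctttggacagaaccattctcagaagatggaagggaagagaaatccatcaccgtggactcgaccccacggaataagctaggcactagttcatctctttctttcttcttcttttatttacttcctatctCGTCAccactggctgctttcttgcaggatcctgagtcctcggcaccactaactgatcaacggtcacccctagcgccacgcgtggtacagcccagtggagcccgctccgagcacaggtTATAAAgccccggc
Ahi1: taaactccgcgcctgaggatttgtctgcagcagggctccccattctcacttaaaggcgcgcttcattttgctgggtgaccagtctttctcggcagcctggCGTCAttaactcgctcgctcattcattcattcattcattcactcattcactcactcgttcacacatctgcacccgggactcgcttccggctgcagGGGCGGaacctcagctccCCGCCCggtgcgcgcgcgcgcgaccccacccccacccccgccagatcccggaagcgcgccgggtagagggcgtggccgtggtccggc

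Both windows hold 1 match to TGACG, which is present in 22.6% of the 21627 windows of this length. The Hap1 window also holds 1 TATAAA, found in 13.2% of all windows, and no GGGCGG. This TATAAA begins at base 37 after the annotated start, and the other marked matches of both windows lie before it. The Ahi1 window holds 2 matches to GGGCGG, found in 42.6% of all windows, and no TATAAA. The GC content was 53.7% with 15 CpG dinucleotides for Hap1 and 63.0% with 29 CpG dinucleotides for Ahi1, against a median GC content of 54.3%. Neither window held CCAAT (39.9% of windows), CACGTG (an E-box, 7.85%) or GCGCATGC (an NRF1 motif, 3.68%). These are matches of letters, and nothing about binding of a factor was measured.

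As Ago2 acts through miRNA seeds, the 3′ UTRs of the canonical transcripts were searched for exact 7-base matches to bases 2 to 8 of 11 miRNAs, chosen by name and mostly abundant in brain. They were let-7a-5p, miR-9-5p, miR-128-3p, miR-29a-3p, miR-92a-3p, miR-26a-5p, miR-138-5p, miR-125b-5p, miR-30a-5p, miR-132-3p and miR-5121. The neuron-enriched mmu-miR-124-3p was missing from the sequences used and was not searched. Of the 10 genes, 8 held a match to at least 1 of the 11 miRNAs. The share of all 3′ UTRs with a match to any of the 11 was not computed, so nothing is read from this count. Single miRNAs of the 11 had matches in 6.94 to 20.6% of all 3′ UTRs searched. The 3′ UTR of Hap1 is 313 bases long and held none, and neither did that of Kif5a, at 728 bases. The 3′ UTR of Ahi1 is 1343 bases long and held a single match, to mmu-miR-128-3p. That miRNA had matches in 6 of the 10 genes and in 20.6% of the 20757 3′ UTRs searched. The 3′ UTRs of these 6 genes were 1343 (Ahi1) to 4720 (Hip1) bases long, and length was not taken into account. The mature miRNA is given with its seed in capitals, and below it the site in Ahi1, at chr10:20955128-20955150 on the plus strand of GRCm39, and the first of the 3 sites in Klc1, at chr12:111767927-111767949 on the plus strand, with the matched bases in capitals.
mmu-miR-128-3p: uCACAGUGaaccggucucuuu
Ahi1 site: aaaaaaatCACTGTGgcctttgg
Klc1 site: gccagcagCACTGTGgccagggt

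The site in Ahi1 is shown because Ahi1 passed the threshold. That in Klc1 is shown because Klc1 held the most matches to mmu-miR-128-3p of the 10 genes. Of the 6 genes with a match, Ahi1 passed, and Hip1, Hip1r, Kif5b, Kif5c and Klc1 did not. For Hap1 there was no match among the 11 miRNAs, which says only that these letters are not in its 3′ UTR. Sites bound by Argonaute 2 were not analysed here.

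The total per library was between 20396357 and 43575900 counts, with WT replicate 2 the deepest. Of 32676 genes with at least 1 count, 18627 were tested with DESeq2, and 253 (1.36%) passed an adjusted p of 0.05, with 147 (0.789%) higher and 106 (0.569%) lower in L192P. With edgeR 0.314% of genes were called, with limma-voom 0.266%, with the replicate number as a block in DESeq2 4.25%, and in replicates 2 to 4 alone 3.46%. At an unadjusted p under 0.05 the share was 9.44% in DESeq2 and 10.9% in limma-voom. The 2 genotypes did not overlap in normalized count (the count divided by the size factor of its library) for 1112 genes (5.97%). Ago2 itself was at normalized counts of 2398, 2273, 2273 and 2222 in L192P replicates 1 to 4 and at 2380, 2083, 2207 and 2316 in WT. The difference was 0.030 on the log2 scale (SE 0.064), and a gene count cannot tell the mutant allele from the other. Replicate 1 of either genotype stood apart in the X-inactivation transcript Xist, at normalized counts of 0.934 in L192P and 1.82 in WT against 5185 to 7257 in the other 6 libraries. Values for replicates 2 to 4 alone are therefore given beside the main results.

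Hap1 (chromosome 11, positions 100238152 to 100246978, minus strand, GRCm39) was higher in L192P. Its normalized counts were 5988, 5600, 5596 and 5520 in L192P replicates 1 to 4 and 4228, 3079, 2926 and 2613 in WT replicates 1 to 4. Every L192P library lay above every WT library, and WT replicate 1 came closest to the L192P range. The means were 5676 ± 211.1 and 3211 ± 704.8 (SD, n = 4 each), a 1.77-fold difference with a log2 fold change of 0.82 (SE 0.12, 95% interval 0.59 to 1.05). The L192P libraries were close together, with a coefficient of variation of 3.72%, and the WT libraries were spread over 21.9%.

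Libraries with the same replicate number tended to deviate together from their genotype mean, so the ratio within each number is informative. For Hap1 it was 1.42, 1.82, 1.91 and 2.11 for replicates 1 to 4, above 1 in 4 of 4 pairs. Without replicate 1 of both genotypes the log2 fold change was 0.95, and within replicate 1, with 1 library of each genotype and no test, the ratio was the lowest of the 4. Leaving out any 1 library kept the log2 fold change between 0.73 (without WT replicate 4) and 0.98 (without WT replicate 1). Hap1 shares no exonic base with another gene of GENCODE M39 on either strand.

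Ahi1 (chromosome 10, positions 20828393 to 20956329, plus strand), whose protein stabilises Hap1 and is also found at the base of primary cilia, was higher in L192P as well. Its normalized counts were 5666, 5209, 5810 and 6096 in L192P and 4419, 3355, 3408 and 3068 in WT. The groups did not overlap, and WT replicate 1 was again the WT library nearest to L192P. With means of 5695 ± 370.3 and 3563 ± 590.2 (SD, n = 4 each), the difference was 1.60-fold, a log2 fold change of 0.68 (SE 0.10, 95% interval 0.48 to 0.87). The ratio within replicate numbers was 1.28, 1.55, 1.70 and 1.99, in the same order over the 4 pairs as for Hap1. Without replicate 1 of both genotypes the log2 fold change was 0.80, and leaving out 1 library at a time gave 0.61 to 0.80. Exons of Ahi1 share 444 bases with Gm66176 and Gm66165 on the opposite strand, and whether the counting used strand is not given in the sources used here.

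Hap1 and Ahi1 were the 2 of 10 genes past the adjusted threshold, beside 1.36% of all genes tested. As the genes were chosen by this contrast, nothing is read from that share. The remaining 8 genes had log2 fold changes between -0.081 and 0.19, and the median over the 10 was 0.0015, beside 0.0019 over all genes tested.

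**Figure D1:**
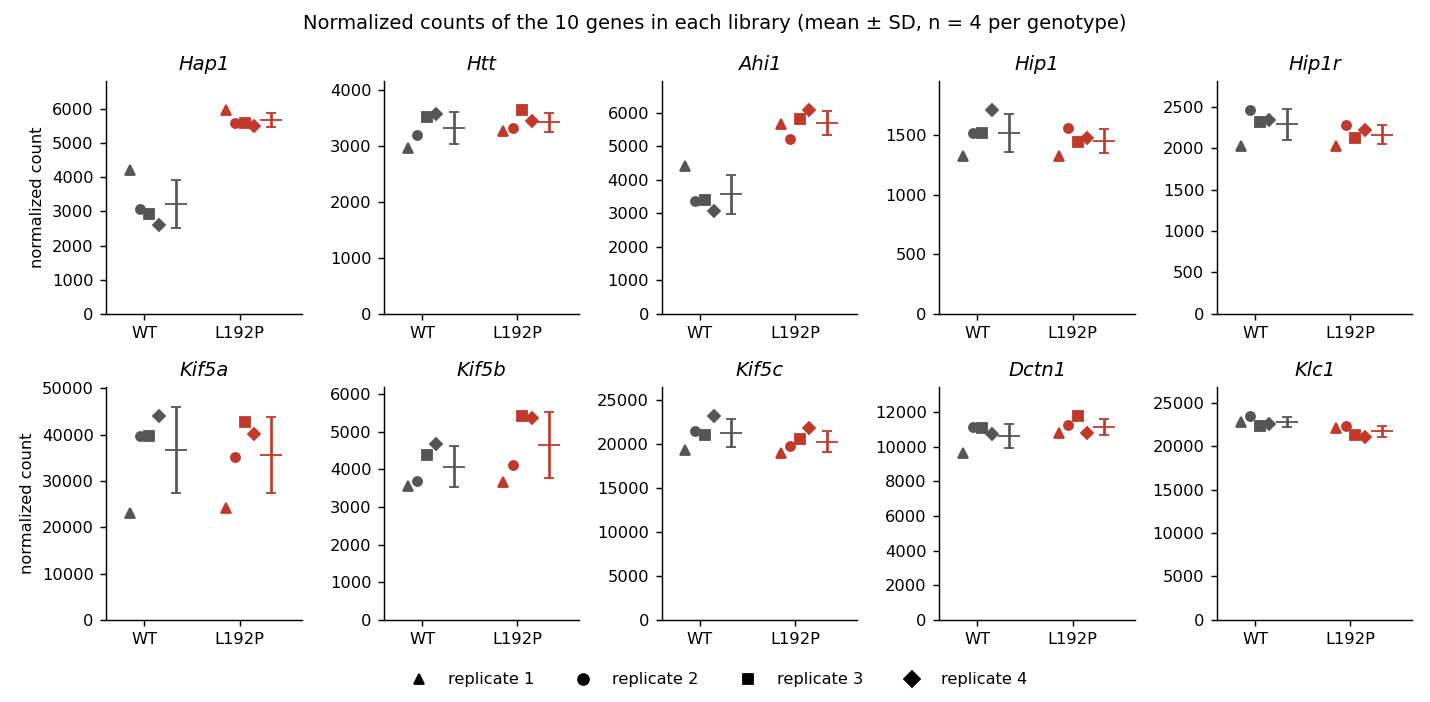
Normalized counts (y axis, linear from 0, separate scale per panel) of the 10 genes in the 4 WT libraries (grey) and the 4 L192P libraries (red), with 1 symbol per replicate number and the mean ± SD beside the points. Hap1 and Ahi1 are the panels in which the L192P libraries sit well above the WT libraries, and in the Kif5a panel replicate 1 is the lowest library of both genotypes.

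Exon length was the union of exons over all annotated transcripts of a gene, so levels per kilobase depend on annotation when genes are compared. Per kilobase of exon, the ratio of Hap1 to Ahi1 was 3.77, 3.83, 3.43 and 3.23 in L192P replicates 1 to 4 and 3.41, 3.27, 3.06 and 3.03 in WT. These ranges overlapped, although Hap1 and Ahi1 each did not. The ratio of Hap1 to Htt, on the same scale, was 9.87 to 11.8 in L192P and 4.70 to 9.19 in WT. Within WT, this ratio was highest in replicate 1. The ratio of Ahi1 to Htt was 2.83 to 3.20 in L192P and 1.55 to 2.69 in WT.

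**Figure D2:**
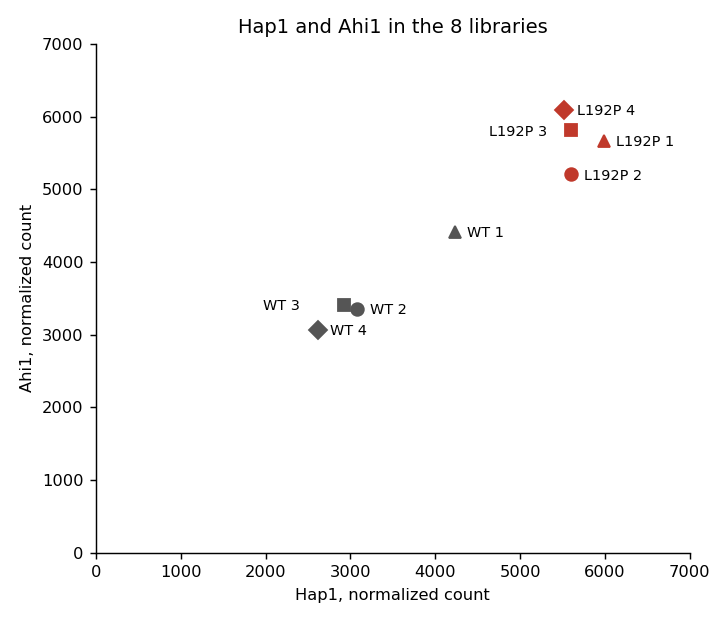
Normalized count of Ahi1 (y axis) against that of Hap1 (x axis) in each of the 8 libraries, WT in grey and L192P in red. The 4 L192P libraries lie at upper right, 3 WT libraries at lower left, and WT replicate 1 between them at 4228 for Hap1 and 4419 for Ahi1.

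Huntingtin, the partner after which Hap1 was named, is a scaffold for vesicle transport. Htt (chromosome 5, positions 34919084 to 35069878, plus strand) was at normalized counts of 3265, 3324, 3650 and 3445 in L192P and 2963, 3204, 3517 and 3578 in WT. The groups overlapped, with WT replicate 1 the lowest of the 8 libraries. The log2 fold change was 0.046 (SE 0.074, 95% interval -0.099 to 0.19). The direction rested on WT replicate 1, since without that library the log2 fold change was -0.0043.

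Hip1 and Hip1r encode the huntingtin-interacting protein 1 and its relative, adaptors that bind clathrin and actin during endocytosis. Hip1 (chromosome 5, positions 135435351 to 135573985, minus strand) was at normalized counts of 1324, 1562, 1444 and 1479 in L192P and 1323, 1520, 1518 and 1717 in WT. The highest library was WT replicate 4 and the lowest was replicate 1 of either genotype, so the groups overlapped. The log2 fold change was -0.065 (SE 0.088, 95% interval -0.24 to 0.11). Hip1r (chromosome 5, positions 124111649 to 124143632, plus strand) was at 2029, 2287, 2128 and 2221 in L192P and 2031, 2468, 2315 and 2347 in WT. Its groups overlapped through the near-equal values of replicate 1, and its log2 fold change was -0.081 (SE 0.075, 95% interval -0.23 to 0.066). Exons of Hip1r share 1620 bases with Vps37b on the opposite strand, and those of Hip1 share 1055 bases with Gm71317.

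The 3 Kif5 genes encode the heavy chains of kinesin-1. Kif5a and Kif5c are the neuronal forms and Kif5b is made in most cells. Kif5a (chromosome 10, positions 127060993 to 127103180, minus strand) was at normalized counts of 24257, 35166, 42794 and 40229 in L192P and 23110, 39797, 39743 and 44096 in WT. Replicate 1 was low in both genotypes, and the groups overlapped over nearly their whole range. The log2 fold change was -0.043 with the widest error of the 10 genes (SE 0.23, 95% interval -0.49 to 0.41). It turned to 0.10 without L192P replicate 1 and to 0.057 without WT replicate 4. Exons of Kif5a share 1246 bases with Gm40800 and Dctn2 on the opposite strand.

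Kif5c (chromosome 2, positions 49509265 to 49664791, plus strand) was at normalized counts of 18952, 19738, 20578 and 21794 in L192P and 19325, 21508, 21035 and 23216 in WT. It was lower in L192P in 4 of 4 same-numbered pairs, but the groups overlapped, with a log2 fold change of -0.070 (SE 0.069, 95% interval -0.21 to 0.066). Both forms thus had intervals that included 0.

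Kif5b (chromosome 18, positions 6199099 to 6242174, minus strand) was at normalized counts of 3674, 4127, 5423 and 5371 in L192P and 3543, 3699, 4371 and 4671 in WT. The groups overlapped, but within each replicate number the L192P library was the higher one, with ratios of 1.04, 1.12, 1.24 and 1.15. The log2 fold change was 0.19 (SE 0.12, 95% interval -0.052 to 0.44) and did not pass the threshold. With the replicate number as a block it was 0.18 and passed, which made 3 of the 10 genes called, beside 4.25% of all genes in that fit.

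Within the kinesin-1 heavy chains, per kilobase of exon, Kif5a made up 56.8% in L192P replicate 1 and 55.3% in WT replicate 1, against 64.3 to 66.7% in the other 6 libraries. Kif5c took the complementary share, 35.6 and 37.1% in replicate 1 against 25.8 to 29.0% elsewhere. Kif5b made up 6.69 to 7.62% in L192P and 5.43 to 7.51% in WT. The balance of the neuronal forms thus differed between replicate 1 and the other numbers in both genotypes alike. No stretch of 50 bases is shared between the canonical transcripts of the 3 genes, nor between those of Hip1 and Hip1r.

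**Figure D3:**
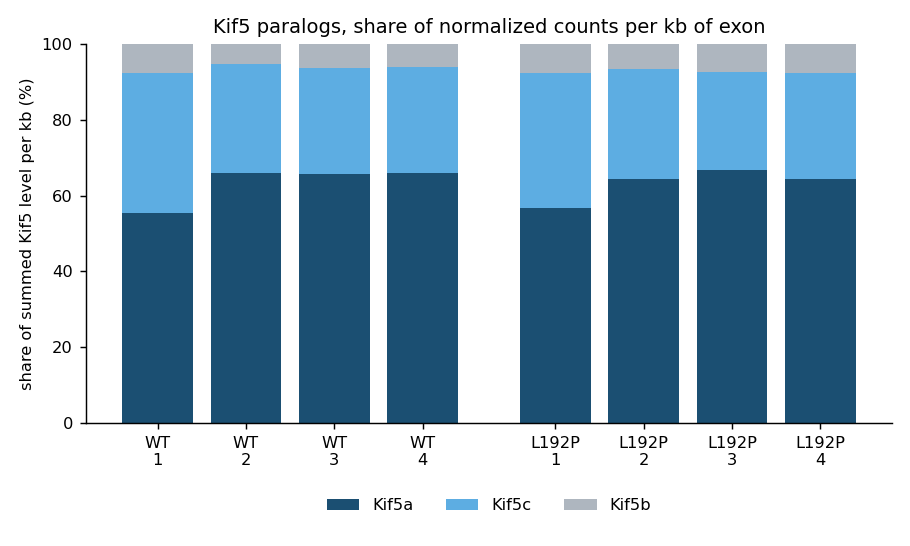
Share of Kif5a, Kif5b and Kif5c (percent of their sum, per kilobase of exon) in each of the 8 libraries. Kif5a is at 56.8 and 55.3% in replicate 1 of L192P and WT and between 64.3 and 66.7% in the other libraries, and Kif5b stays between 5.43 and 7.62% throughout.

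Klc1 (chromosome 12, positions 111724555 to 111775796, plus strand) encodes a kinesin light chain, the subunit that binds cargo adaptors. Its normalized counts were 22149, 22281, 21285 and 21063 in L192P and 22816, 23504, 22292 and 22527 in WT. All L192P libraries were below all WT libraries, by a narrow margin between 22281 and 22292. The means were 21694 ± 610.1 and 22785 ± 525.4 (SD, n = 4 each), and the log2 fold change was -0.071 (SE 0.046, 95% interval -0.16 to 0.018). Klc1 did not pass the threshold, and 1898 bases of its exons lie opposite Xrcc3. With Hap1 and Ahi1 it made 3 of the 10 genes whose groups did not overlap, beside 5.97% of all genes tested.

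Dctn1 (chromosome 6, positions 83142902 to 83177107, plus strand) encodes p150Glued, the dynactin subunit that binds dynein and Hap1. Its normalized counts were 10812, 11225, 11779 and 10783 in L192P and 9620, 11105, 11075 and 10733 in WT. The groups overlapped, and WT replicate 1 was the lowest library. The log2 fold change was 0.068 (SE 0.063, 95% interval -0.055 to 0.19). Leaving out 1 library at a time gave 0.023 (without WT replicate 1) to 0.089.

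**Figure D4:**
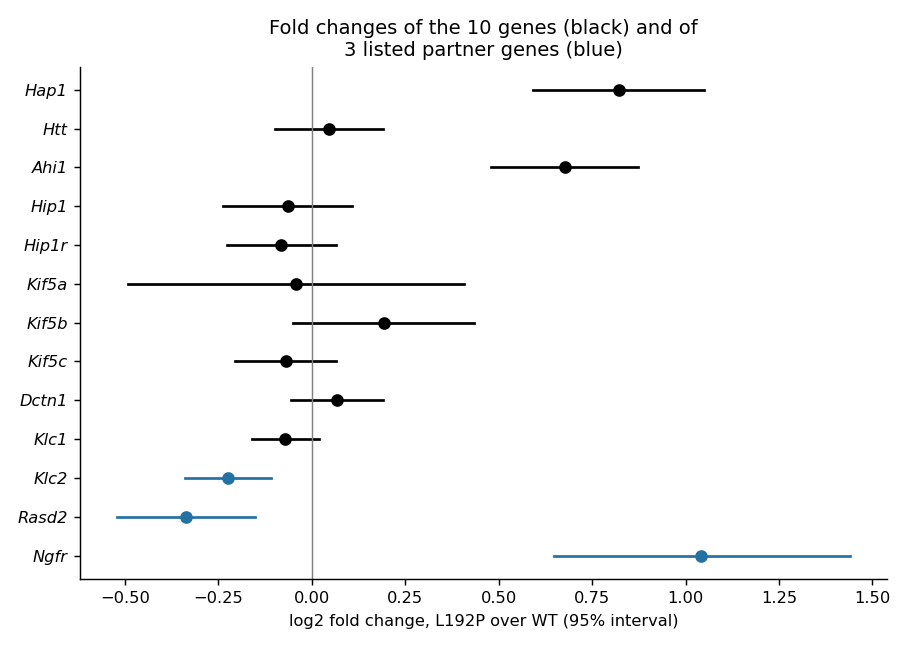
Log2 fold change of L192P over WT (x axis) for each of the 10 genes (black) and for Klc2, Rasd2 and Ngfr from the pathway lists (blue), with the DESeq2 estimate as a point and its 95% interval as a bar. The intervals of Hap1 (0.59 to 1.05) and Ahi1 (0.48 to 0.87) lie above 0, those of the other 8 genes in black include 0, and Klc2 and Rasd2 lie below 0 and Ngfr above it.

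On a scale of normalized counts per kilobase of exon, Kif5a had the highest mean of the 10 genes in WT, at 3210 ± 811.8 (SD, n = 4), above all libraries of the next gene. Klc1 (1689), Dctn1 (1625) and Kif5c (1494) followed, each with a WT range that overlapped that of its neighbour in this order. Hap1 came after them at 846.0 ± 185.7, separate from its neighbours on both sides. Kif5b (315.5), Hip1r (276.2) and Ahi1 (263.3) came next with overlapping ranges, and Htt (135.7) and Hip1 (116.8) had the lowest levels, also overlapping. In L192P the level of Hap1 was 1454 to 1577 per kilobase, inside the combined range of Kif5c and Klc1 (1331 to 1652). That of Ahi1 was 385.0 to 450.6, which overlapped the range of Kif5b (284.7 to 420.2) and lay above that of Hip1r (244.7 to 275.9). The exon union was 3796 bases over 13 transcripts for Hap1 and 13487 bases over 170 transcripts for Klc1. The order of genes on this scale therefore depends on annotation as well as on counts.

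To place the 10 genes among others of the same pathways, 109 genes in 6 lists were examined, all of which were tested. DESeq2 called 3 of them (2.75%, beside 1.36% of all genes), 1 higher and 2 lower in L192P, and 12 (11%, beside 9.44% of all genes) had an unadjusted p under 0.05. With edgeR 1 gene was called. With limma-voom 0 were called, and 11 had an unadjusted p under 0.05, beside 10.9% of all genes. With the replicate block 6 were called, beside 4.25% of all genes. The median log2 fold change over the 109 genes was -0.0086.

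Among 21 kinesin light chains, kinesin-1 adaptors and other kinesins, 1 was called (2 with the replicate block) and the median log2 fold change was -0.0091. It was Klc2, the second light chain expressed in neurons, at normalized counts of 6705, 6832, 6226 and 5996 in L192P and 7314, 7791, 7537 and 7456 in WT. The groups did not overlap, and Klc2 was lower in L192P with a log2 fold change of -0.22 (SE 0.059, DESeq2 adjusted p = 0.0167). Over 16 alternatives the adjusted p ran from 0.000279 to 0.138 and it passed in 8. It was lost with edgeR, limma-voom and total-count scaling, and when L192P replicate 3 (0.136) or 4 (0.134) was dropped, as with WT replicate 2 (0.129), 3 (0.123) or 4 (0.101). Klc1 and Klc2 thus both had lower values in all L192P libraries than in any WT library, and of this pair Klc2 alone passed. Groups did not overlap for 5.97% of all genes tested. The light chains Klc3 and Klc4 overlapped between the genotypes, with log2 fold changes of 0.139 (SE 0.244) and -0.0091 (SE 0.115).

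Of 23 genes for dynein and dynactin subunits and their regulators, DESeq2, edgeR and limma-voom called 0, and 1 (4.35%) had an unadjusted p under 0.05 with DESeq2. Their median log2 fold change was -0.015. Dync1h1, the dynein heavy chain, was chosen for mention after its values were seen. Its normalized counts were 5571 and 5042 in replicate 1 of L192P and WT and 7939 to 8482 in WT and 8296 to 8638 in L192P in the other libraries, so it had the same low replicate 1 as Kif5a.

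Among 21 further proteins that bind huntingtin or Hap1, 1 was called (3 with the replicate block) and the median log2 fold change was -0.0030. Rasd2, also known as Rhes, a small GTPase made mainly in the striatum that binds huntingtin, was at normalized counts of 6323, 6646, 5390 and 6658 in L192P and 6752, 7837, 7905 and 9102 in WT. It was lower in all L192P libraries, with a log2 fold change of -0.34 (SE 0.094, DESeq2 adjusted p = 0.0309). Over the 16 alternatives the adjusted p ran from 0.000126 to 0.236 and it passed in 9. It was lost with edgeR, limma-voom and without independent filtering, and when L192P replicate 3 (0.168) was dropped, as with WT replicate 2 (0.0860), 3 (0.121) or 4 (0.236). Summed over 8 striatal marker genes, normalized counts were 28031 to 34834 in L192P and 36800 to 44963 in WT, and these ranges did not overlap either. The part of this in the Rasd2 result was not tested.

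Of 13 neurotrophin genes, receptors and other cargo that kinesin-1 carries, 1 was called and the median log2 fold change was -0.026. Ngfr, the p75 neurotrophin receptor, was at normalized counts of 152.3, 267.4, 176.4 and 233.6 in L192P and 131.1, 91.5, 93.4 and 85.5 in WT. It was higher in all L192P libraries, with a log2 fold change of 1.04 (SE 0.20, DESeq2 adjusted p = 9.92e-05). Over the 16 alternatives the adjusted p ran from 3.29e-08 to 0.0621, and it was lost with limma-voom alone. Bdnf, outside the naming rule, whose transport in axons depends on huntingtin and Hap1, had a log2 fold change of -0.21 (SE 0.099, DESeq2 adjusted p = 0.465).

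For 16 clathrin coat genes and endocytic adaptors, the partners of Hip1 and Hip1r, DESeq2, edgeR and limma-voom called 0, with 0 at an unadjusted p under 0.05 in DESeq2, and the median log2 fold change was 0.0072. For 15 genes of Joubert syndrome and the ciliary transition zone, the group in which Ahi1 is a disease gene, the 3 tools also called 0, with 1 (6.67%) at an unadjusted p under 0.05 in DESeq2, and the median was 0.010. That gene, named after its value was seen, was Cep290, a transition zone scaffold, with a log2 fold change of 0.34 (SE 0.16, DESeq2 adjusted p = 0.421).

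The summed markers of 3 neighbouring regions, the hypothalamus, the amygdala and the striatum, did not overlap between the genotypes, while those of thalamus and hippocampus did. The values are given because Hap1 is known to be abundant in some of these regions. In bulk RNA, fewer cells of a type and less RNA per cell cannot be told apart. The 10 cortical neuron markers were present in every library, led by Camk2a, with summed normalized counts of 101163 to 108024 in L192P and 100731 to 119207 in WT. The labelled tissue thus had its defining markers. DESeq2 called 1 of the 10 higher, Gad2, beside 0.789% of all genes tested. With the replicate block 4 of the 10 were called, beside 4.25% of all genes.

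The sum over 12 hypothalamic markers was 1027, 402.8, 1536 and 984.6 in L192P replicates 1 to 4 and 357.0, 278.5, 244.4 and 360.6 in WT. The groups did not overlap in this sum. DESeq2 called 4 of the 10 tested markers higher, beside 0.789% of all genes tested. They were Oxt and Avp, which encode oxytocin and vasopressin, Gal, which encodes galanin, and Otp, a transcription factor of neuroendocrine neurons. Avp overlapped between the genotypes, at 19.35 in L192P replicate 2 and 21.85 in WT replicate 1. Pomc went the other way, with a log2 fold change of -0.125 (SE 0.741). With edgeR 2 of the 10 were called (beside 0.314% of all genes), with the replicate block 2 (beside 4.25%) and with limma-voom 0 (beside 0.266%). At an unadjusted p under 0.05 in DESeq2 there were 7, beside 9.44% of all genes. The sums overlapped when Trh was left out (265.2 to 1424 in L192P and 179.6 to 304.4 in WT), and did not overlap when any other of the 12 was left out, a step added after the data were seen. Pmch, Hcrt and Sim1 were at 0 in at least 1 library. L192P replicate 2 had the lowest hypothalamic sum of its genotype, at 402.8, near the highest WT value of 360.6, and its Hap1 count was 5600 beside 5520 to 5988 in the other L192P libraries.

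The sum over 5 amygdala markers was 1778 to 2008 in L192P and 1282 to 1715 in WT, again without overlap. With the replicate block 2 of the 5 were called (beside 4.25% of all genes), with edgeR 1 (beside 0.314%) and with limma-voom 1 (beside 0.266%). DESeq2 with genotype alone called 2 of the 5 higher, Tac2 and Dlk1, beside 0.789% of all genes tested. Of the others, Ecel1 had a log2 fold change of 0.50, Rspo2 of -0.023 and Cyp26b1 of -0.093, and none of these 3 passed. Without Dlk1 the sums overlapped (1210 to 1576 in L192P and 1114 to 1365 in WT), and without any other of the 5 they did not. WT replicate 1 had the highest amygdala sum of WT, 1715, and also the highest WT counts of Hap1 and Ahi1. None of the 5 was at 0 in any library. The part of the hypothalamic and amygdala markers in the Hap1 and Ahi1 results was not tested.

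The thalamic sum was 2226 to 5562 in L192P and 2144 to 2798 in WT, which overlapped. The sums of markers for hippocampus, choroid plexus, astrocytes, oligodendrocytes, microglia and endothelial cells overlapped as well, and DESeq2, edgeR and limma-voom called 0 of the 6 thalamic markers and of those in the other 6 lists. At an unadjusted p under 0.05 in DESeq2 there were 2 thalamic and 2 microglial markers, beside 9.44% of all genes. With the replicate block 1 thalamic, 1 microglial and 1 endothelial marker were called, beside 4.25% of all genes. The block called 0 in the lists of hippocampus, choroid plexus, astrocytes and oligodendrocytes.

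**Figure D5:**
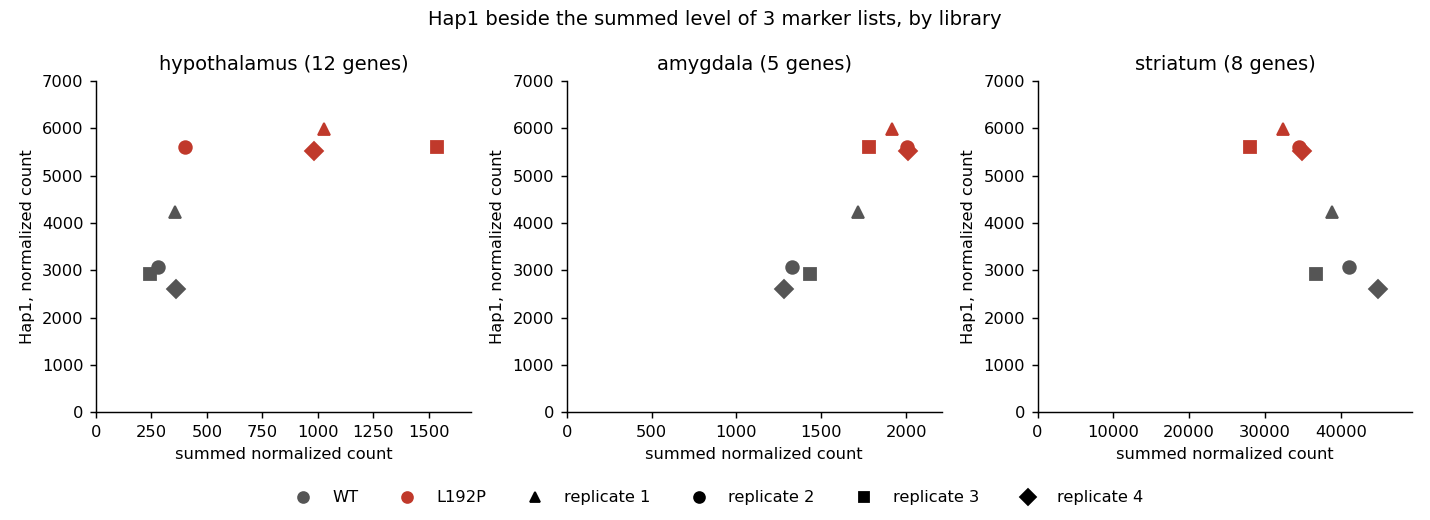
Normalized count of Hap1 (y axis) against the summed normalized counts of hypothalamic, amygdala and striatal markers (x axes, 1 panel per list) in the 8 libraries, WT in grey and L192P in red. L192P replicate 2 has a hypothalamic sum of 402.8, close to the WT libraries, with a Hap1 count of 5600, and WT replicate 1 has the highest amygdala sum and Hap1 count among WT.

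The genes most like Hap1 were ranked by Pearson's r of log2(normalized count + 1), centred within each genotype so that the genotype difference does not enter. The ranking was over 8 libraries and 12056 genes averaging 100 or more normalized counts. The points share library depth and preparation, so r is a description. The highest values were those of Selenoh (0.99), Rbm17 (0.97), Fam120b (0.96), Plpp6 (0.95) and Pnck (0.95), and the lowest were those of Ptch1 (-0.98), Wdfy3 (-0.97) and Il17ra (-0.97). Most of the variation of Hap1 came from WT replicate 1, 0.42 log2 units above the WT mean, and WT replicate 4, 0.27 units below it (-0.27). Without these 2 libraries r was 0.94 for Selenoh and 0.95 for Pnck, but 0.78, 0.68 and 0.70 for Rbm17, Fam120b and Plpp6. These values kept the centring made over all 8 libraries, so an offset between the genotypes can enter them.

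Ahi1 was 83rd in that ranking, with r = 0.89. Without WT replicates 1 and 4, and with the centring still over all 8 libraries, its r was 0.11. The likeness of Hap1 and Ahi1 over the 8 libraries thus rested largely on WT replicates 1 and 4. The other members had negative r over the 8 libraries, from -0.88 (Hip1) to -0.59 (Kif5b), with the exception of Klc1 at 0.23. Without WT replicates 1 and 4, and with the same centring, r was between -0.79 (Kif5a) and -0.52 (Kif5c) for those with negative values and 0.49 for Klc1.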

How the data were processed

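The authors aligned reads of stranded mRNA libraries with STAR (2.7.9a per the submitters' processing notes) to GRCm39 and tallied them per gene with featureCounts 1.5.1. The strand setting is not given in the sources used here. They deposited raw counts, and a table of normalized signal that equalled the deposited count divided by a DESeq2 size factor within 3.5e-10. Libraries held 20396357 to 43575900 counts, so genes with few counts have coarse fold changes.

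DESeq2 1.42.0 in R 4.3.3 was fitted to the counts of all 8 libraries, modelling genotype alone, after the tool of the study. Size factors were medians of ratios, the Cook filter was kept at its default, and independent filtering was set to 0.05. Calls required an adjusted p (Benjamini-Hochberg, over all genes tested) under 0.05. Intervals of 95% come from the fitted SE on a normal scale. Alternatives were edgeR 4.0.16 (quasi-likelihood), limma 3.58.1 (voom), TMM and total-count scaling, a filter of 10 counts in 4 libraries, no independent filtering, the replicate block, replicates 2 to 4 only, and leaving out each library.

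The members and lists were chosen with earlier results of these data known. Named genes were the members, Ago2, every called gene of the 6 pathway lists, and the 5 most and 3 least like Hap1. Outside this rule, and after their values were seen, Klc3, Klc4, Dync1h1, Bdnf, Cep290, Xist, the pathway genes called in replicates 2 to 4, and genes of marker lists were named. Single genes of the striatal list are not reported here.

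No 2 libraries of a genotype agreed within sampling noise (chi-square per degree of freedom 5.98 to 25.0). Pairs that held replicate 1 were at 14 to 25, and pairs among replicates 2 to 4 at 5.98 to 8.73. Replicate numbers come from the labels. Over 13422 genes, deviations of same-numbered libraries correlated at 0.63 for replicate 1 and at 0.23 to 0.38 for replicates 2 to 4. Those of the 12 other pairs correlated at -0.38 to 0.14. Ratios within numbers and a fit with the replicate block are therefore given. The main fit, with its SEs, intervals and adjusted p, does not model this pairing. Positions, 3′ UTRs and exon overlaps come from GENCODE M39 (98.8% of identifiers found), as do start windows, and miRNAs come from RefSeq. The programs were tested on simulated counts.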

Additional observations from a re-analysis of the deposited data

Results flagged for a closer look

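In the 20 sets of 4 libraries (10 genes in 2 genotypes), 0 had a library separated from the rest by Dixon's 95% criterion. Chance would give about 1 if the sets were independent, but they share the same 8 libraries. Hap1 in L192P came close to the criterion, with replicate 1 at 5988 and the other libraries at 5520 to 5600.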

How the results depend on the processing

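Hap1 and Ahi1 were called under all 16 alternatives, with log2 fold changes of 0.73 to 0.98 and 0.61 to 0.80. The members were chosen with results of these libraries known, and the alternatives refit the same counts. These calls therefore describe dependence on processing only and give no independent support. Directions turned for Htt without WT replicate 1 (-0.0043, against up to 0.083 without WT replicate 4) and for Kif5a without L192P replicate 1 (0.10) or WT replicate 4 (0.057), against -0.21 without WT replicate 1. The number of genes called was 253, and became 53 with edgeR, 45 with limma-voom, 500 with replicates 2 to 4 only, and 112 (without WT replicate 4) to 496 (without WT replicate 1) when 1 library was left out. It was also 114 without WT replicate 2, 127 without WT replicate 3 and 126, 156 and 157 without L192P replicates 3, 2 and 4. Total-count scaling called 168 higher and 64 lower, against 147 and 106. Of the 109 pathway genes, 3 were called, 1 with edgeR, 0 with limma-voom, 9 with replicates 2 to 4 only, and 1 (without L192P replicate 3 or WT replicate 2, 3 or 4) to 8 (without WT replicate 1). With the replicate block 533 genes (4.25%) were called, 228 higher and 305 lower. These included 6 of the pathway genes and 3 of the 10 members. The third member was Kif5b (0.18), and the block changed no other call of a member or of Klc2, Rasd2 and Ngfr. The causes of these shifts were not tested. With 4 libraries per genotype, the intervals of the 8 genes not called still allow differences, for Kif5a from -0.49 to 0.41 on the log2 scale.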

Other observations

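In replicates 2 to 4 alone, which share a high level of Xist, 9 of the 109 pathway genes were called, Ngfr higher and 8 lower, beside 500 of all genes (3.46%), 238 higher and 262 lower. They were named after their values were seen. The lower ones were Klc2, the kinesins and kinesin adaptors Trak1, Mapk8ip1 and Kif3c, and Rasd2, Kalrn, Itpr1 and Sort1. Trak1 links kinesin-1 to mitochondria, Mapk8ip1 is a scaffold that binds kinesin light chains, and Sort1 encodes the sorting receptor sortilin. Over all 8 libraries their log2 fold changes were -0.12 (Trak1, SE 0.061), -0.17 (Mapk8ip1, SE 0.080) and -0.13 (Sort1, SE 0.067), and none of these 3 passed, with DESeq2 adjusted p values of 0.515, 0.440 and 0.548. Whether the genotype difference itself differs between replicate 1 and the other numbers was not tested.

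The ratio of Klc1 to the sum of the 3 Kif5 genes, per kilobase of exon, was 0.439 and 0.463 in replicate 1 of L192P and WT and 0.281 to 0.345 in the other 6 libraries, in which both genotypes overlapped.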
